A study of Mus musculus with 12 samples.

Results

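The question addressed here was whether losing SUMO-1 altered what the mutant huntingtin knock-in did to striatal gene expression. It was read as the interaction of both genetic changes, the difference between the SUMO-1 effect in knock-in mice and the SUMO-1 effect in mice without the knock-in. All 12 of the 12 RNA sequencing libraries entered the comparison, 3 for each of 4 mouse genotypes, and 17796 of the 53465 genes in the count table had enough reads to be tested. WT libraries came from wild-type mice. Q175HD libraries came from the Q175 neo-deleted knock-in (B6J.129S1-Htttm1.1Mfc/190ChdiJ), a line that carries an expanded CAG repeat in the endogenous Htt gene, so the mutant protein is made wherever Htt is normally expressed. SUMO-KO libraries came from SUMO-1 knockout mice, and Q175HD/SUMO-KO libraries came from mice carrying both. All groups were labelled as striatal cells on a C57/BL6 background, a background label that names no substrain. The stock name in the Q175HD label begins with B6J, and the labels of the other groups give no stock name. The SUMO-1 allele, the ages of the mice and whether they carried 1 or more mutant Htt copies are not given in the labels used here.

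SUMO proteins are small ubiquitin-like modifiers that are joined to lysines of target proteins by activating, conjugating and ligase enzymes, and are removed by SENP proteases. Huntingtin is a SUMO target, and Rhes, a small GTPase made by the Rasd2 gene mainly in striatum, promotes its SUMOylation. In Huntington disease the striatal projection neurons are the most affected cells, and the loss of their identity transcripts is a well known feature of Htt knock-in striatum. An interaction is positive where the gene was higher, relative to the sum of the separate effects, in mice that carried both changes. The same value can be read as the knock-in effect without SUMO-1 minus the knock-in effect with SUMO-1. Values per library are read counts scaled to library depth (CPM), effects are log2 fold changes with standard errors (SE), and 3 libraries stood behind each genotype.

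Library depth was 9379594 to 17226419 reads, and replicate libraries of a genotype differed by more than sampling noise. Striatal marker genes were detected in every library, with Ppp1r1b, which encodes the dopamine signalling protein DARPP-32, at 404.8 to 1227 CPM. Other tissue also varied. Slc17a7, a vesicular glutamate transporter made by cortical excitatory neurons, ranged from 12.9 to 384.5 CPM and was highest in WT 1, and Ttr, the transthyretin gene of choroid plexus, ranged from 26.6 to 4721 CPM within and across genotypes. The mean log2 level of 24 cortical excitatory neuron genes, set to 0 at the WT mean, was 0.53, 0.06 and -0.59 in WT 1, 2 and 3, between -1.51 and -0.73 in Q175HD, between -1.33 and -1.03 in SUMO-KO and between -1.14 and -0.56 in Q175HD/SUMO-KO. WT 1 and WT 2 stood above all other libraries, and WT 3 lay among the Q175HD/SUMO-KO values. The interaction of this mean was 1.496 (SE 0.44), so several results are given below also with the mean as a covariate. Libraries with abundant Xist reads and almost no Ddx3y reads were replicate 2 of WT, SUMO-KO and Q175HD/SUMO-KO, and none was in the Q175HD group.

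Htt, the gene changed by the knock-in, ran from 249 to 284 CPM in WT, 189 to 206 in Q175HD, 263 to 302 in SUMO-KO and 159 to 218 in Q175HD/SUMO-KO, and the knock-in groups lay below the others. Its interaction was -0.11 (SE 0.16, 95% interval -0.45 to 0.23). Rasd2, the Rhes gene, had an interaction of -0.41 (SE 0.38, 95% interval -1.24 to 0.42), with library Q175HD/SUMO-KO 2 at 145 CPM beside 340 and 353 CPM in the other libraries of its genotype. Without that library the estimate was -0.098, and with the cortical covariate its sign turned, to 0.19.

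No gene passed the test of the interaction. With Benjamini-Hochberg adjustment over all 17796 genes, the quasi-likelihood test of edgeR called 0 genes (0%), and the smallest adjusted p was 0.254. At an unadjusted p under 0.05 there were 770 genes, or 4.33% of those tested, of which 500 (2.81%) were positive and 270 (1.52%) negative. The median interaction over all genes was -0.01, and 49% of estimates were positive. DESeq2's Wald test, run without that filter on reads, called 32 genes, 30 of them positive. Of the 32808 genes it tested, 727 had an unadjusted p under 0.05. With that cortical mean added as a covariate DESeq2 called 0, with 777 of 32813 genes at an unadjusted p under 0.05. The edgeR test also called 0, with 1046 of 17796. Some of DESeq2's estimates kept their size with the covariate while their errors widened. That of Gabra2 was 1.16 (SE 0.26) without it and 1.39 (SE 0.40) with it. That of Nr4a3 was 1.08 (SE 0.27) and 1.02 (SE 0.44). That of Myl4, a gene with a mean of 22.9 reads and 5 to 12 in SUMO-KO, was 2.75 (SE 0.60) and 2.51 (SE 0.94). By contrast, that of Scube1 was 2.68 (SE 0.57) and 0.46 (SE 0.52), and its error did not widen. Leaving out WT 3, the WT library with the least cortical signal, gave 34 edgeR calls, all positive.

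The precision of the estimates bounds what could have gone unseen. The 95% interval of the interaction lay inside a range of -1 to 1 on the log2 scale for 64.1% of all genes tested, for 86.7% of the 12775 genes with a mean of at least 50 reads, and for 97.4% of those with at least 1000 reads. Inside the narrower range of -0.5 to 0.5 lay 30.3%, 42.2% and 64% of the same sets. For genes under 50 reads the intervals were wide, and 6.75% of the 5021 lay inside -1 to 1.

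The knock-in changed many genes, and it did so in the same direction with and without SUMO-1. Averaged over SUMO-1 status, 1430 genes (8.04% of those tested) rose and 1571 (8.83%) fell by edgeR's test at an adjusted p under 0.05. Of these, 2562 had a mean of at least 50 reads, 1277 rises and 1285 falls, and 2552 of them (99.6%) had effects of the same sign in both SUMO-1 backgrounds. The average of both effects chose the genes, which in part fixes that agreement of sign, whereas the difference between the effects was not used to choose them. The median effect on the rises was 0.29 with SUMO-1 and 0.38 without it, and on the falls -0.42 and -0.49. The least-squares slope through 0 of the effect without SUMO-1 on the effect with it was 0.998 over all of them, 1.12 for rises and 0.91 for falls.

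**Figure D1:**
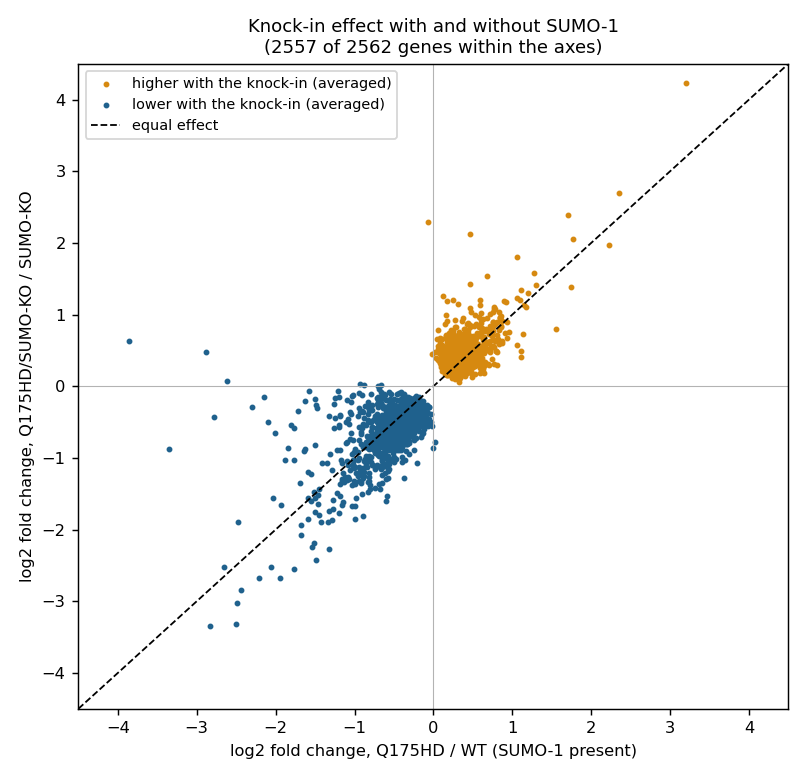
Each point is 1 of the 2562 genes that the knock-in changed on average, with the log2 fold change of Q175HD over WT on the horizontal axis and that of Q175HD/SUMO-KO over SUMO-KO on the vertical axis; the dashed line marks equal effects. Points lie along the line (slope 0.998), and the genes far above it at the left include cortical genes such as Ctgf.

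Signed by the direction of the knock-in effect, the median interaction of these genes was 0.09, so the typical effect was slightly larger without SUMO-1. It was larger without SUMO-1 for 1744 of the 2562 genes (68.1%), and at an unadjusted p under 0.05 for 141, against 61 for which it was smaller. Over all genes tested 4.33% had such a p in either direction. Among the rises the counts were 60 larger and 3 smaller, and among the falls 81 and 58. A score of each library, the signed median level of these genes, was -0.20, -0.17 and -0.15 in WT, 0.16, 0.16 and 0.21 in Q175HD, -0.25, -0.18 and -0.20 in SUMO-KO and 0.20, 0.19 and 0.26 in Q175HD/SUMO-KO. The knock-in groups separated fully from the groups without it, which the choice of the genes and of their signs fixed, while libraries with and without SUMO-1 overlapped within each knock-in status. The interaction of the score was 0.07 with an SE of 0.04. The signed median was 0.04 without WT 3, 0.15 without SUMO-KO 3, and 0.02 with the cortical covariate.

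The number of calls was higher without SUMO-1. With SUMO-1 present the knock-in raised 198 genes (1.11%) and lowered 501 (2.82%), and without SUMO-1 it raised 568 (3.19%) and lowered 821 (4.61%), all by edgeR at an adjusted p under 0.05. Among the 2562 genes, 388 were called in both backgrounds, 177 with SUMO-1 and not without it, and 763 without SUMO-1 and not with it. By edgeR none of the genes called in a single background passed the test of the difference itself, whereas DESeq2 called that difference for some of them. Among the 2562 genes these include Gabra2, Ctgf, Nxph3, Scube1, Etl4, Cplx3 and Rprm. Outside the 2562 genes they include Nr4a3, Bmp3, Klf6 and Sv2b.

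The genes with the largest averaged knock-in effects are given one by one. Where the interval of an interaction holds 0, it does not show that the effects were equal, and several intervals were wide. Among the rises, Lmx1b, a LIM homeobox factor of midbrain dopamine neuron development, was at 0 to 0.17 CPM in WT and 0.14 to 0.21 CPM in SUMO-KO. It was at 15.7, 11.9 and 11.3 CPM in Q175HD and at 10.6, 15.2 and 11.8 CPM in Q175HD/SUMO-KO, and those groups overlapped throughout. Its interaction was -0.74 (95% interval -2.34 to 0.85). Sfmbt2, a Polycomb-group protein, rose from 2.61 to 4.52 CPM in WT to 15.5 to 19.3 CPM in Q175HD, and from 3.01 to 3.19 CPM in SUMO-KO to 16.9 to 24.9 CPM in Q175HD/SUMO-KO, with an interaction of 0.34 (95% interval -0.28 to 0.97). Hoxc4, a homeobox factor that patterns the body axis, had 0 reads in all libraries without the knock-in. It was at 6.04, 4.80 and 5.65 CPM in Q175HD and at 8.44, 14.99 and 9.80 CPM in Q175HD/SUMO-KO, a set of higher values without overlap, for which no interaction can be given because both reference groups were at 0. Hoxc5 was likewise at 3.72 to 4.96 CPM in Q175HD and at 7.96 to 17.3 CPM in Q175HD/SUMO-KO. The remaining rises, Shox2, Tmc3, AW551984 and Tnnt2, had interactions of 1.03, -0.25, 0.68 and 0.28, each with an interval that held 0. Several of these estimates rested on 1 library or on the cortical signal. Without WT 3 those of Shox2, Tnnt2, AW551984 and Lmx1b were -0.18, -0.16, 0.14 and -0.15. That of Tmc3 was 0.084 without SUMO-KO 1, and with the cortical covariate that of Sfmbt2 was -0.245 (SE 0.44).

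Among the falls, Ryr1, the ryanodine receptor that releases calcium from internal stores, had the tightest estimate. It was at 120.1, 118 and 112 CPM in WT and fell to 16.6, 16.5 and 16.2 CPM in Q175HD, and it was at 184, 138 and 127 CPM in SUMO-KO and fell to 14.8, 17.1 and 12.5 CPM in Q175HD/SUMO-KO. The knock-in groups overlapped and the SUMO-KO libraries lay above all WT libraries. The interaction was -0.52 (95% interval -0.93 to -0.10, unadjusted p = 0.0185, edgeR adjusted p = 0.997), and -0.83 (SE 0.28) with the cortical covariate. Abi3bp, an extracellular matrix protein, ran in the same way, at 13.7, 16.0 and 17.1 CPM in WT, 28.8, 25.3 and 21.5 CPM in SUMO-KO and 2.86 to 5.06 CPM across both knock-in groups, with an interaction of -0.73 (95% interval -1.34 to -0.11) that was -0.22 (SE 0.42) with the cortical covariate. Mas1, a receptor for angiotensin-(1-7), and Gpr139, an orphan receptor of striatum, had interactions of 0.57 and 0.14. Sec14l3, Phex, Slc4a11 and Col6a4 had interactions of -0.82, -0.40, -0.46 and -0.46, and the intervals of these 6 genes held 0. With the cortical covariate the estimates of Mas1 and Sec14l3 turned sign, to -0.25 (SE 0.55) and 0.54 (SE 0.77), and those of Gpr139, Phex, Slc4a11 and Col6a4 were 0.90, -1.35, -0.78 and -1.08. That of Gpr139 was -0.16 without Q175HD/SUMO-KO 1, and that of Col6a4 0.062 without SUMO-KO 1.

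**Figure D2:**
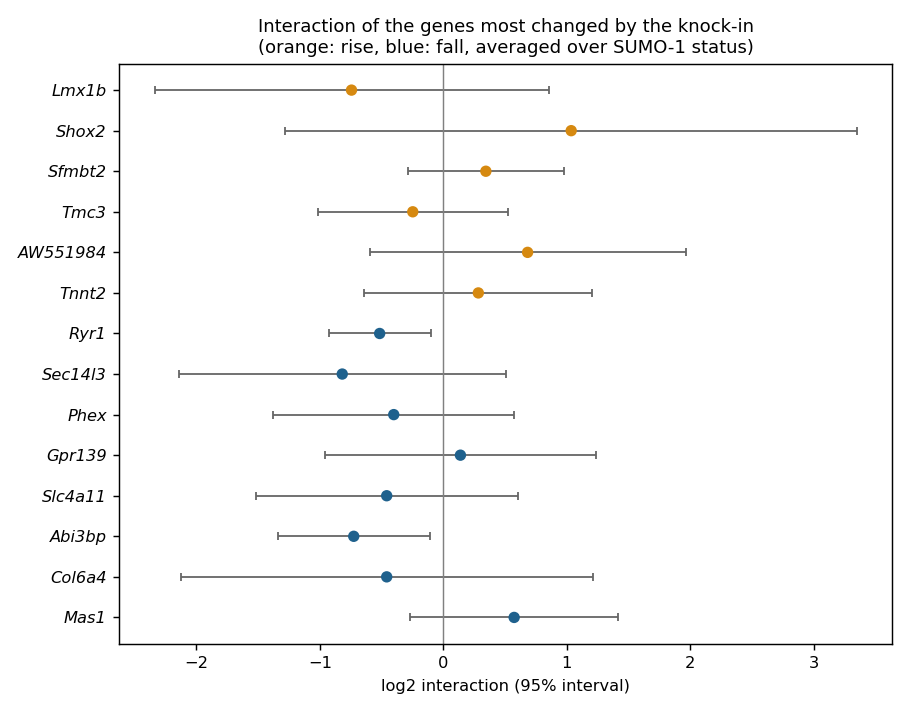
Points are the log2 interactions of the 14 genes with the largest averaged knock-in effects that had reads in every genotype, with 95% intervals; orange marks genes the knock-in raised and blue those it lowered. The values come from the fit of group means, in which the intervals of Ryr1 and Abi3bp lie below 0 and the others hold 0; with the cortical covariate Abi3bp was at -0.22 (SE 0.42).

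Few genes were called for SUMO-1 loss in either knock-in state. Without the knock-in, 2 genes rose (0.0112%) and 6 fell (0.0337%) by edgeR at an adjusted p under 0.05. In the knock-in, 4 rose (0.0225%) and 2 fell (0.0112%). Gm28411, annotated as an antisense transcript, rose in both. It had 0 reads in all WT and Q175HD libraries, 5.68, 3.59 and 2.44 CPM in SUMO-KO and 2.98, 3.62 and 2.34 CPM in Q175HD/SUMO-KO. It is read as uncertain, because whether the counting used strand is not stated in any source used here. The genes of these lists described next were chosen after their values were seen.

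In the knock-in, SUMO-1 loss raised Gabra2, Nnt and Nr4a3. Gabra2 encodes the alpha-2 subunit of the GABA-A receptor and lies on chromosome 5 (70957597 to 71095849). It was at 125, 101 and 154 CPM in WT, 48.3, 39.4 and 48.8 CPM in Q175HD, 171, 162 and 122 CPM in SUMO-KO and 109.7, 152 and 106 CPM in Q175HD/SUMO-KO. Q175HD was low and overlapped no other group, while the other 3 genotypes overlapped each other. With SUMO-1 present, the knock-in effect on Gabra2 was -1.48 (SE 0.19, edgeR adjusted p = 0.00117), beside -0.31 (SE 0.18, edgeR adjusted p = 0.316) without it. SUMO-1 loss raised it in the knock-in by 1.43 (edgeR adjusted p = 0.0187), beside 0.26 (edgeR adjusted p = 0.516) without the knock-in. The interaction was 1.17 (SE 0.26, 95% interval 0.61 to 1.73, unadjusted p = 0.000602, edgeR adjusted p = 0.548), while DESeq2 called it (adjusted p = 0.00758; range over all alternatives 0.00758 to 1). It was 1.40 with the cortical covariate, 1.46 without WT 1 and WT 2, and 1.18 among libraries with few Xist reads.

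Nnt, the mitochondrial nicotinamide nucleotide transhydrogenase, followed the same order. It was at 48.0, 40.8 and 45.9 CPM in WT, 27.8, 25.4 and 24.2 CPM in Q175HD, 51.5, 51.6 and 48.1 CPM in SUMO-KO and 42.4, 38.4 and 39.2 CPM in Q175HD/SUMO-KO. Q175HD was again the lowest group and overlapped none. SUMO-1 loss raised it in the knock-in by 0.63 (SE 0.09, edgeR adjusted p = 0.0258), and the interaction was 0.47 (SE 0.13, unadjusted p = 0.00285, edgeR adjusted p = 0.757).

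Gabra2 and Nnt belong to a list of genes reported to carry sequence or copy number differences between C57BL/6 substrains. Of the 9 genes listed 6 were tested, 0 were called by edgeR for the interaction and 3 had a positive interaction at an unadjusted p under 0.05, where 2.81% of all genes did, and the median of the 6 was 0.29. The third was Wdfy1, an endosomal adaptor protein, which was at 56.7, 21.5 and 48.1 CPM in WT, 24.3, 21.6 and 23.2 CPM in Q175HD, 48.0, 53.6 and 57.02 CPM in SUMO-KO and 56.4, 58.6 and 56.0 CPM in Q175HD/SUMO-KO. All Q175HD libraries and WT 2 were low and all other libraries high. Its interaction was 0.98 (SE 0.36, unadjusted p = 0.0187), and without WT 2 it was the 1 gene that edgeR called. Ide, the insulin-degrading enzyme, split WT in the same way, at 47.0, 92.6 and 42.2 CPM, beside 98.0 to 103 CPM in Q175HD, 47.8, 49.4 and 74.9 CPM in SUMO-KO and 55.3, 79.3 and 80.0 CPM in Q175HD/SUMO-KO, with an interaction of -0.42 (SE 0.40). Cyfip2 and Crb1 had interactions of 0.06 and 0.11. Whether the genotypes differed in C57BL/6 substrain was not tested, and it cannot be told apart from genotype for genes that separate Q175HD from every other library.

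**Figure D3:**
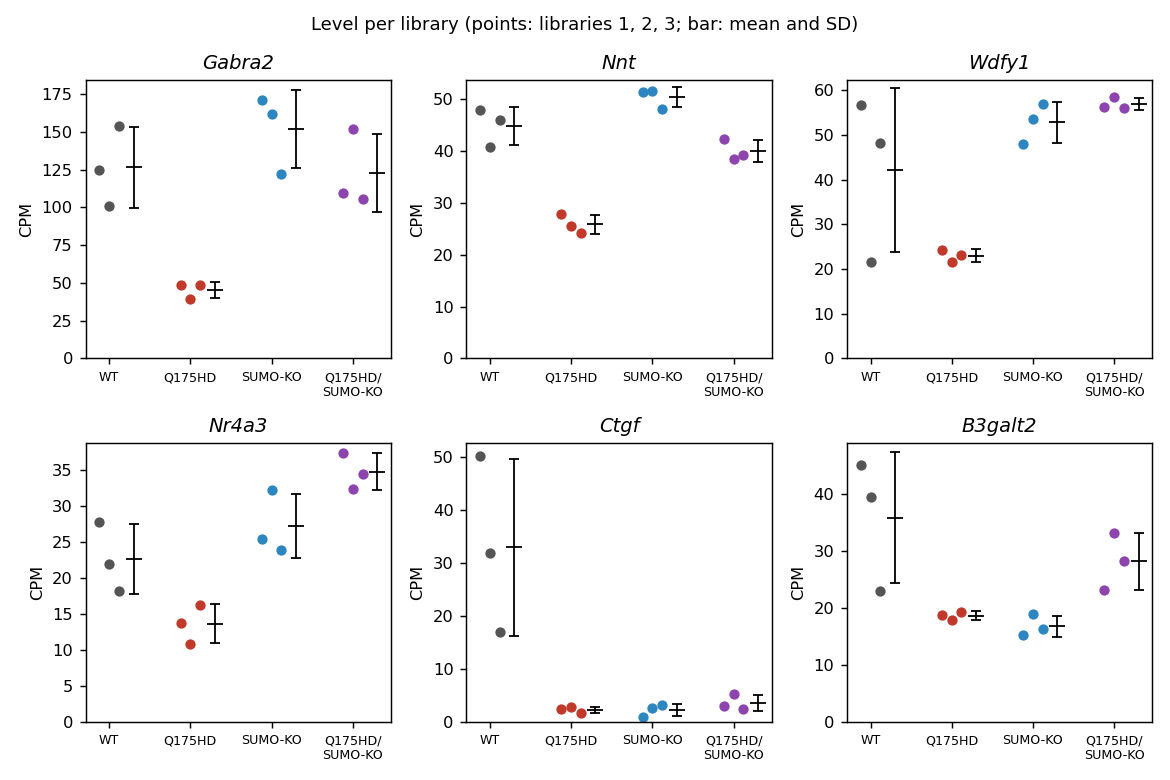
Points are the CPM of each library by genotype for 6 genes, and bars beside them give the mean and SD of 3 libraries. Gabra2 and Nnt are low in Q175HD alone, Nr4a3 is highest in Q175HD/SUMO-KO, Wdfy1 is low in Q175HD and WT 2, and Ctgf and B3galt2 are highest in WT 1 and WT 2.

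The other genes called for SUMO-1 loss had other patterns. Without the knock-in, Rian, a maternally expressed long noncoding RNA of the imprinted Dlk1-Meg3 region, rose by 0.78 (SE 0.12, edgeR adjusted p = 0.0371). It was at 466, 571 and 548 CPM in WT and 950.0, 952 and 815 CPM in SUMO-KO, and at 644 to 761 CPM in Q175HD and 916 to 1122 CPM in Q175HD/SUMO-KO, so that both knockout groups lay above both others. Its interaction was -0.24 (SE 0.17), and its loss-of-SUMO-1 value in the knock-in was 0.54 (edgeR adjusted p = 0.472). Ctgf, Cplx3, Myl4, Gm10635 and Ighm fell without the knock-in, and all were highest in WT. For each of them WT 3, with the least cortical signal in WT, was the lowest WT library. With the cortical covariate the edgeR interactions of Cplx3, Ighm and Gm10635 moved from 2.47, 1.22 and 6.57 to 1.23, 0.56 and 3.92. That of Myl4 moved from 2.75 to 2.51. Gm10635 and Myl4 had means of 9.75 and 22.9 reads. In the knock-in, 6820402A03Rik, a little-studied transcript, fell (edgeR adjusted p = 0.0258). It was at 2.93 to 3.43 CPM in WT and 3.09 to 3.46 CPM in Q175HD, at 0.105, 2.09 and 1.36 CPM in SUMO-KO, and at 0 reads in all Q175HD/SUMO-KO libraries.

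The 12 genes of smallest interaction p with at least 50 reads were all positive, and WT stood apart from the other genotypes for most of them. They were Ctgf, B3galt2, Klf6, Bmp3, Nxph3, Rprm, Scube1, Pls3, Kcnf1, Sv2b, Gabra2 and Etl4, with interactions from 0.73 to 5.49. WT 1 was the highest of the 12 libraries for 10 of them, and WT 3 was the lowest WT library for 11. The group that stood apart was WT for 7, SUMO-KO for 3 and Q175HD for 2, where WT stood apart for 23.2% of all genes tested. DESeq2 called 11 of them. With the cortical covariate 11 had a smaller estimate, and their median moved from 1.43 to 0.80.

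Ctgf, the connective tissue growth factor gene that marks deep cortical layer 6b, had the smallest p. It was at 50.2, 31.8 and 16.9 CPM in WT, 2.32, 2.85 and 1.66 CPM in Q175HD, 0.948, 2.59 and 3.15 CPM in SUMO-KO and 3.06, 5.30 and 2.40 CPM in Q175HD/SUMO-KO. WT was far above the rest, and the other groups overlapped. Its interaction of 4.48 (SE 0.69, edgeR adjusted p = 0.254) became 2.42 with the cortical covariate. Ctgf is itself in the list behind that covariate, which in part fixes the drop. B3galt2, a beta-1,3-galactosyltransferase, was at 45.0, 39.4 and 22.9 CPM in WT, 18.8, 17.9 and 19.3 CPM in Q175HD, 15.3, 18.9 and 16.2 CPM in SUMO-KO and 23.1, 33.1 and 28.2 CPM in Q175HD/SUMO-KO. Here the groups with a single change were the low ones, and Q175HD/SUMO-KO overlapped WT. The knock-in lowered it with SUMO-1 (-0.94, edgeR adjusted p = 0.0248) and raised it without SUMO-1 (0.75, edgeR adjusted p = 0.0472), and the interaction was 1.69 (SE 0.29, edgeR adjusted p = 0.254) or 0.95 with the cortical covariate.

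Klf6, a zinc finger transcription factor, was at 40.4, 35.3 and 29.4 CPM in WT, 25.5, 27.0 and 26.9 CPM in Q175HD, 22.7, 23.0 and 25.8 CPM in SUMO-KO and 29.8, 32.5 and 34.7 CPM in Q175HD/SUMO-KO, with an interaction of 0.84 (SE 0.16). The groups with a single change again lay lowest, and Q175HD/SUMO-KO was within the WT range. Pls3, an actin-bundling protein, had the same order of groups and an interaction of 0.73 (SE 0.16). Sv2b, a synaptic vesicle glycoprotein, was lowest in SUMO-KO, while Q175HD overlapped WT, and had an interaction of 0.74 (SE 0.16). With the cortical covariate the values of Klf6, Sv2b and Pls3 were 0.53, 0.30 and 0.47. Kcnf1, a modulatory potassium channel subunit, was lowest in Q175HD, at 40.2 to 41.7 CPM beside 49.2 to 90.6 CPM elsewhere, with an interaction of 0.89 (SE 0.20), or 0.65 with the covariate. The whole cortical list gave the same picture. Of its 24 genes 14 were positive at an unadjusted p under 0.05 and 0 negative, where 2.81% and 1.52% of all genes were. None was called by edgeR, and the median interaction was 1.95, or 0.07 with the covariate built from the list itself. Their part in the other interactions was not tested beyond the covariate.

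Immediate early genes had positive interactions in every member tested. These genes are switched on within minutes by neuronal activity through calcium and cAMP signalling, and the Nr4a nuclear receptors among them are known targets of the transcription factor CREB, which binds the sequence TGACGTCA or its half-site TGACG. The 250 bases before the RefSeq transcript start of each Nr4a gene are shown because all members of the family are among the genes described next. The sequences are RefSeq's on GRCm38.p6, read on the gene's strand, with TGACG and its reverse complement CGTCA in capitals, from chr15:101266596-101266845 for Nr4a1 on the plus strand, chr2:57124004-57124253 for Nr4a2 on the minus strand and chr4:48045055-48045304 for Nr4a3 on the plus strand. The GENCODE M21 gene Nr4a3 begins at 48045153, inside its window.
Nr4a1: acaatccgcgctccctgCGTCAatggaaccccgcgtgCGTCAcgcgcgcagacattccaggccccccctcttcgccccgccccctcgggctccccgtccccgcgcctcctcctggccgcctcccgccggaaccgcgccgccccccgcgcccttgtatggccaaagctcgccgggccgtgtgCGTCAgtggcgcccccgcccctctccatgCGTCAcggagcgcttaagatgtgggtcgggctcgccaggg
Nr4a2: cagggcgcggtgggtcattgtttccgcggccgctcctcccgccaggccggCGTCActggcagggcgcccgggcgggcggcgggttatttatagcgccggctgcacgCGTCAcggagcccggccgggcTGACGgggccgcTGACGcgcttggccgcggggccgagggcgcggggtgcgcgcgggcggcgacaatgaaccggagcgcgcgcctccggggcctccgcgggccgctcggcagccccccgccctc
Nr4a3: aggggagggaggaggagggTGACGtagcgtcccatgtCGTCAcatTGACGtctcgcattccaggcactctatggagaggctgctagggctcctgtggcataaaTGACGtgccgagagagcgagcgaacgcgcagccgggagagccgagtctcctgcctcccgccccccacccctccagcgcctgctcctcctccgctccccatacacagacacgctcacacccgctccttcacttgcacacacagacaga
Each window held 4 half-sites. Either form of TGACG occurs in 17.8% of the 32851 windows of that length in the table and the full TGACGTCA in 1.55%. Counted by gene, 19.8% of the 27025 genes in the table held TGACG on either strand in at least 1 window and 1.77% held TGACGTCA, where of the 19 immediate early genes with a window 14 and 2 did. A match describes the letters and not binding.

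All 25 immediate early genes tested had a positive interaction, where 49% of all genes did, with a median of 0.50 beside -0.01 over all genes. None was called by edgeR, and 8 (Nr4a3, Nr4a2, Dusp6, Fosl2, Btg2, Klf10, Egr1 and Nr4a1) were positive at an unadjusted p under 0.05, with 0 negative, where 2.81% and 1.52% of all genes were. The members were measured in the same libraries and are not independent of each other. The median knock-in effect on the list was -0.55 with SUMO-1 and 0.04 without it. By edgeR's test the knock-in lowered 5 of them with SUMO-1 (Nr4a3, Dusp6, Homer1, Sik1 and Dusp1) and 1 without it (Homer1), where it lowered 2.82% and 4.61% of all genes, and raised 0 in either background. The mean level of the list, set to 0 in WT, was 0.21, -0.02 and -0.19 in WT, -0.60, -0.66 and -0.51 in Q175HD, -0.36, -0.57 and -0.43 in SUMO-KO and -0.34, -0.71 and -0.10 in Q175HD/SUMO-KO. WT was high, Q175HD was low and SUMO-KO overlapped Q175HD, while Q175HD/SUMO-KO spread from below every other library to a value between WT 2 and WT 3.

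Nr4a3, also called NOR-1, was the member with the smallest p. It was at 27.9, 21.9 and 18.2 CPM in WT, 13.8, 10.9 and 16.3 CPM in Q175HD, 25.5, 32.3 and 23.9 CPM in SUMO-KO and 37.5, 32.4 and 34.6 CPM in Q175HD/SUMO-KO. Q175HD lay below every other library and Q175HD/SUMO-KO above every other library. The knock-in effect was -0.73 (SE 0.18, edgeR adjusted p = 0.038) with SUMO-1 and 0.36 (SE 0.17, edgeR adjusted p = 0.218) without it. SUMO-1 loss raised it in the knock-in by 1.35 (SE 0.17, edgeR adjusted p = 0.0178), beside 0.26 (SE 0.17, edgeR adjusted p = 0.491) without the knock-in. The interaction was 1.08 (SE 0.24, 95% interval 0.56 to 1.61, unadjusted p = 0.000661, edgeR adjusted p = 0.548), 1.02 with the cortical covariate and 0.78 without WT 1 and WT 2, and DESeq2 called it (adjusted p = 0.0442; range over all alternatives 0.0442 to 1).

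The other family members differed in shape. Nr4a1, or Nur77, was at 80.3, 89.1 and 107 CPM in WT, 61.7, 57.2 and 76.0 CPM in Q175HD, 82.5, 70.7 and 35.9 CPM in SUMO-KO and 103, 56.2 and 99.9 CPM in Q175HD/SUMO-KO. Q175HD lay below WT, SUMO-KO 3 was the lowest library of all, and Q175HD/SUMO-KO 2 stood apart from the other libraries of its genotype. The interaction was 0.97 (SE 0.42, unadjusted p = 0.0427). Nr4a2, or Nurr1, which also marks deep cortical neurons, was at 68.6, 41.0 and 6.86 CPM in WT, 3.06 to 3.72 CPM in Q175HD, 1.80 to 3.80 CPM in SUMO-KO and 5.95, 20.3 and 5.65 CPM in Q175HD/SUMO-KO, and so followed the cortical signal in WT 1 and WT 2.

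Dusp6, a phosphatase that switches off ERK, was at 51.3, 42.3 and 40.4 CPM in WT and at 23.7 to 33.8 CPM in the other 9 libraries, which overlapped across genotypes. Its interaction was 0.68 (SE 0.19, unadjusted p = 0.00382). Fosl2, a Fos-family partner in AP-1, was at 62.4, 39.7 and 35.8 CPM in WT, 31.0, 26.7 and 36.3 CPM in Q175HD, 39.8, 50.1 and 52.4 CPM in SUMO-KO and 63.5, 42.9 and 67.2 CPM in Q175HD/SUMO-KO, with an interaction of 0.84 (SE 0.31). Q175HD overlapped WT at its upper end and lay below both knockout groups. Egr1, a zinc finger factor of the same response, had an interaction of 0.65 (SE 0.28), Klf10 of 0.89 (SE 0.36) and Btg2, an antiproliferative cofactor, of 0.65 (SE 0.26). Arc, which traffics AMPA receptors, and Homer1, a postsynaptic scaffold, are with Egr1 the most abundant of the list by reads, and had interactions of 0.78 (SE 0.41) and 0.12 (SE 0.27). Among the other members the interaction ran down to 0.05 for Npas4, a neuronal activity factor, with an SE of 0.57.

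The list kept its sign under the settings tried, with fewer members positive in some of them. The median was 0.70 with the cortical covariate (21 of 25 positive), 0.45 without WT 1 and WT 2 (20 positive), 0.75 among libraries with few Xist reads (25 positive) and 0.29 without Q175HD/SUMO-KO 3 (21 positive). DESeq2 called 2 of the 25, Nr4a2 and Nr4a3.

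**Figure D4:**
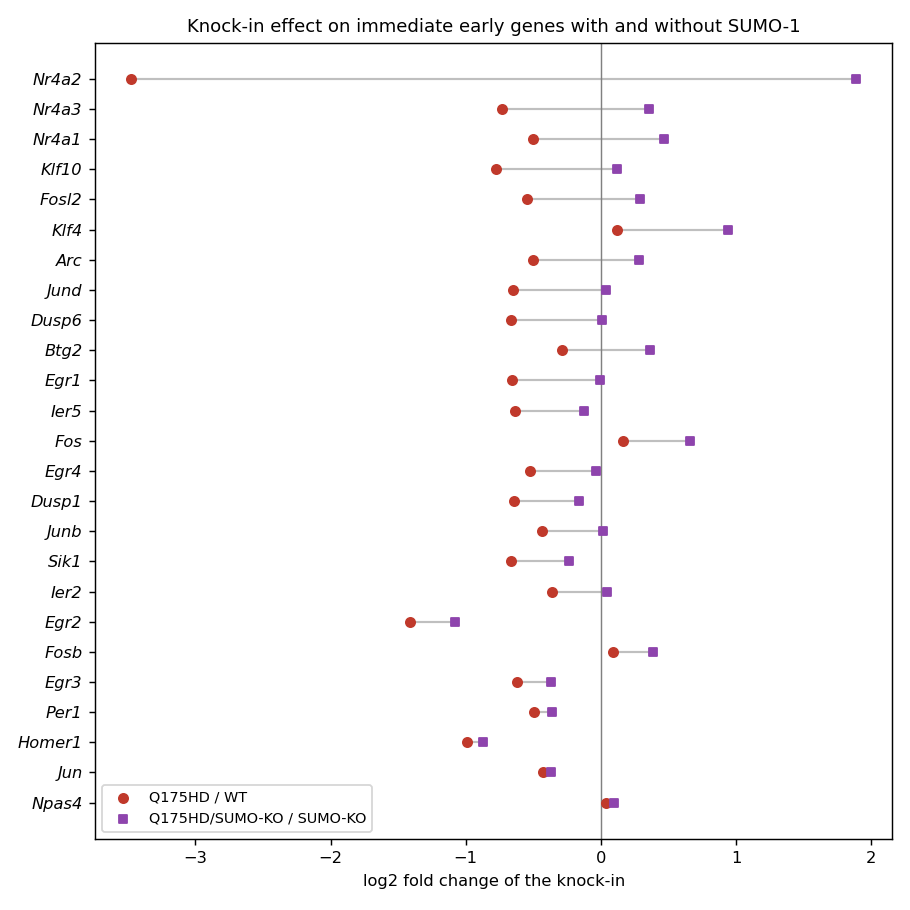
For each of 25 immediate early genes, the log2 fold change of the knock-in is shown with SUMO-1 (circles, Q175HD over WT) and without it (squares, Q175HD/SUMO-KO over SUMO-KO), in order of the interaction. The square lies to the right of the circle for all 25 genes, farthest for Nr4a2, a gene that also marks cortical neurons.

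Striatal projection neuron genes had mostly negative interactions in the fit of group means. Of 49 tested, 44 had a negative interaction, 9 of them at an unadjusted p under 0.05, where 1.52% of all genes were, and 0 called by edgeR, and the median was -0.23. The knock-in lowered 19 of them with SUMO-1 and 32 without it, by edgeR's test, where it lowered 2.82% and 4.61% of all genes. Pde10a, the striatal cyclic nucleotide phosphodiesterase, was at 1909, 1850 and 2055 CPM in WT and fell to 858, 839 and 829 CPM in Q175HD, and was at 2145, 2181 and 2241 CPM in SUMO-KO and fell to 728, 463 and 733 CPM in Q175HD/SUMO-KO. Each group lay apart from the others, SUMO-KO above WT and Q175HD/SUMO-KO below Q175HD, and the interaction was -0.57 (SE 0.20, unadjusted p = 0.0152). Rgs9, a regulator of dopamine receptor signalling, and Actn2, an actin crosslinker, had interactions of -0.63 (SE 0.25) and -0.67 (SE 0.21). Beside these values stands library Q175HD/SUMO-KO 2, whose list mean was -1.06 where the other libraries of its genotype were at -0.64 and -0.58. Without it the median was -0.11, and without WT 1 and WT 2 it was -0.07. With the cortical covariate the sign turned, to 0.15 with 36 of 49 positive, so no direction can be given for this list. In bulk tissue, fewer projection neurons and less RNA per neuron cannot be told apart.

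The receptors of fast and slow transmission split by gene. Of 38 glutamate and GABA receptor genes 15 were positive, where 49% of all genes were, 5 of them at an unadjusted p under 0.05 (Gabra2, Gabra3, Gabbr2, Grik3 and Grik4), and 3 were negative at that level, among them Grm3 and Gabrd, where 2.81% and 1.52% of all genes were. The median was -0.04 and edgeR called 0. Gabra3, the alpha-3 subunit of the GABA-A receptor, was at 58.8, 55.7 and 42.2 CPM in WT, 38.3, 36.1 and 39.1 CPM in Q175HD, 24.5, 38.1 and 40.0 CPM in SUMO-KO and 44.5, 58.5 and 42.9 CPM in Q175HD/SUMO-KO, with an interaction of 0.96 (SE 0.25). The groups with a single change were low and Q175HD/SUMO-KO was within the WT range.

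SUMO pathway genes were centred near 0. Of 30 tested 15 were positive, the median was -0.01, 0 were called by edgeR and 1 had an unadjusted p under 0.05. Over all genes 49% were positive and 4.33% had such a p. Sumo2 and Sumo3, the paralogous modifiers, had interactions of 0.03 (SE 0.16) and -0.08 (SE 0.19). Senp1, a SUMO protease, was at -0.15 (SE 0.18). Sumo2 itself rose with the knock-in in both backgrounds, by 0.46 with SUMO-1 (edgeR adjusted p = 0.0438) and by 0.49 without it (edgeR adjusted p = 0.0228).

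Several lists of abundant housekeeping genes had small positive values in most members, with 0 called by edgeR in each. For nuclear-encoded oxidative phosphorylation 73 of 75 were positive with a median of 0.14, for cytosolic ribosomal proteins 75 of 77 with a median of 0.14, for heat shock proteins and chaperones 31 of 35 with a median of 0.14, and for the proteasome 26 of 33 with a median of 0.09. Over all genes 49% were positive. Members at an unadjusted p under 0.05 numbered 1 in each of the first pair, Ndufa13 and Rpl36, and 0 in the others. Over all genes 2.81% were positive and 1.52% negative at that level. Between libraries these values were of the size of their errors: the interaction of the list mean was 0.15 (SE 0.13) for oxidative phosphorylation, 0.14 (SE 0.12) for ribosomal proteins, 0.19 (SE 0.26) for heat shock proteins and 0.09 (SE 0.09) for the proteasome. With the cortical covariate the medians of oxidative phosphorylation and ribosomal genes were 0.49 and 0.43, and without WT 1 and WT 2 they were 0.23 and 0.24. The heat shock median was 0.01 without Q175HD/SUMO-KO 3. Cholesterol synthesis genes had a median of 0.13, with 23 of 28 positive, where 49% of all genes were. At an unadjusted p under 0.05, 5 were positive, among them Sqle, squalene epoxidase, at 0.52 (SE 0.18), where 2.81% of all genes were. The interaction of that list mean was 0.16 (SE 0.09).

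Immune and clearance lists were centred near 0 in the fit of group means. The median interaction was 0.05 for 46 interferon response genes, 0.03 for 28 cytokine and innate inflammation genes, -0.04 for 28 microglial genes, -0.003 for 44 autophagy genes and 0.05 for 42 lysosomal genes, and edgeR called 0 in each. In the interferon list Isg15 and Dhx58 had interactions of -1.64 (SE 0.68) and -1.67 (SE 0.62) and Igtp, an interferon-induced GTPase, of 0.84 (SE 0.37), each at an unadjusted p under 0.05. Over all genes 1.52% were negative and 2.81% positive at that level. Library Q175HD 2 stood apart in this list, with a list mean of 1.15 beside 0.22 and 0.09 in the other Q175HD libraries, with Isg15 at 3.38 CPM beside 1.26 and 1.40 and with Dhx58 at 4.13 CPM beside 1.48 and 1.40. Without it the list median was 0.41, with 35 of 46 positive, 4 of them at an unadjusted p under 0.05, and 0 negative at that level. In that fit 638 of all 18162 genes tested had such a p in either direction. With the cortical covariate and all libraries the median of the interferon list was -0.48. In the inflammation list Ptgs2, the inducible cyclooxygenase that is also activity-regulated in neurons, had 1.14 (SE 0.39). Choroid plexus genes varied between libraries of 1 genotype more than any other list (SD of the list mean 2.18), with all 22 positive and a median of 1.63 while 0 had an unadjusted p under 0.05. Without WT 1 and WT 2 that median was -2.16. Developmental transcription factors, of which 23 of 64 had enough reads, had a median of 0.64 with 15 positive and 0 called by edgeR. Over all genes 49% were positive. The mean level of the list, set to 0 in WT, was -0.10 in SUMO-KO, 1.83 in Q175HD and 2.32 in Q175HD/SUMO-KO. A gene such as Hoxc4, with 0 reads without the knock-in, could pass the read filter only through the knock-in groups. The interactions ran from -4.47 to 3.41, and no direction is read from this list.

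**Figure D5:**
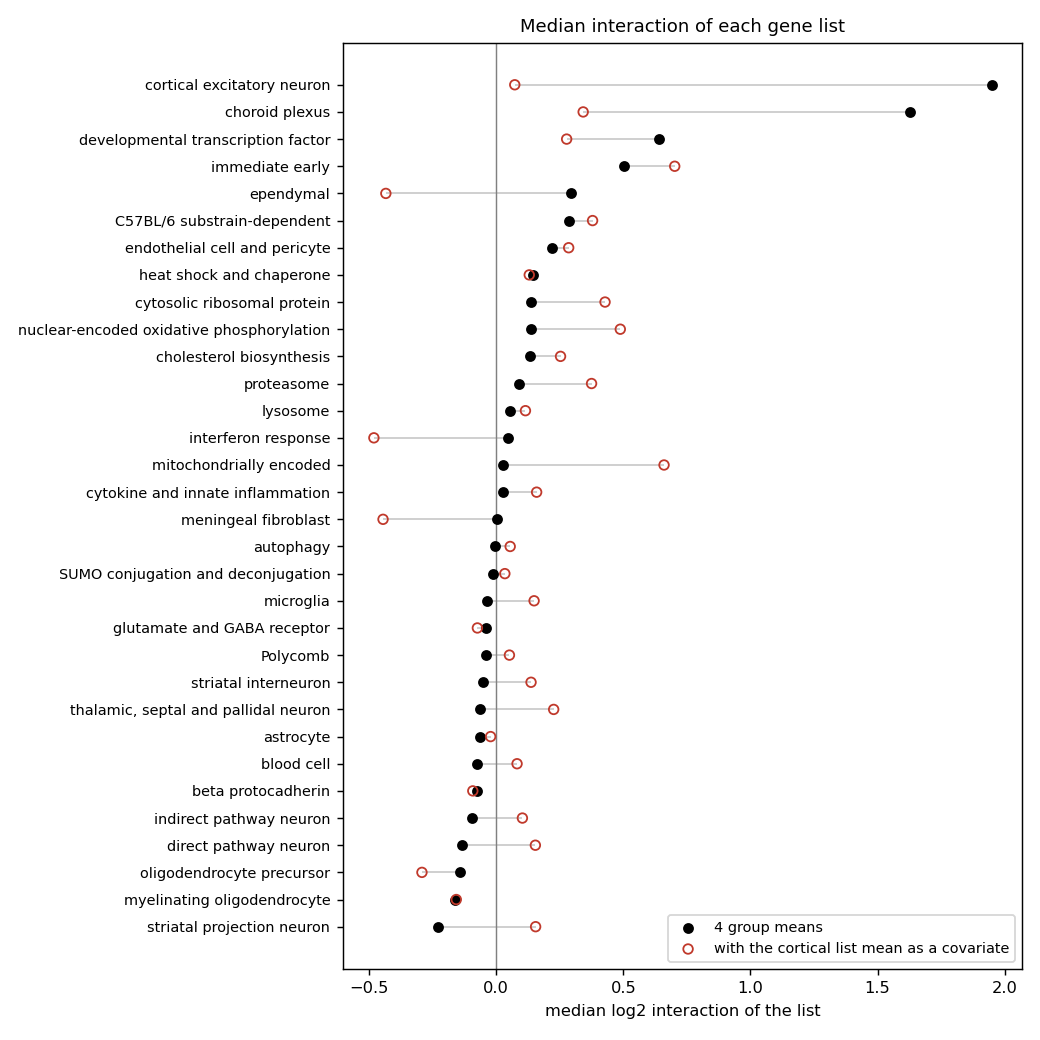
Filled points are the median log2 interaction of each of 32 gene lists in the fit of 4 group means, and open points the same with the mean level of the cortical list as a covariate. The cortical median moves from 1.95 to 0.07 and the projection neuron median from -0.23 to 0.15, while the immediate early median is 0.50 and 0.70.

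Genes near the knock-in locus were counted separately. Within 10 Mb of Htt (chromosome 5, 34761740 to 34912534), 191 genes were tested and 7 of them (3.66%) had an unadjusted p under 0.05, beside 4.33% of all genes. None of them was called by edgeR.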

How the data were processed

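Striatal RNA from 12 mouse libraries was read as gene counts. The authors deposited a table of raw read counts per gene, not normalised; per the submitters' processing notes, cutadapt 2.10, STAR 2.5.2a, Bowtie 1.1.2 and DESeq2 were used with mm10/GRCm38. Neither the counter nor its strand setting is stated in any source used here. Deposited normalised tables and lists were not used, and 0 columns of the table belonged to other samples. Groups came from the sample labels.

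Counts were analysed in R 4.3.3 with edgeR 4.0.16 (limma 3.58.1): filterByExpr (minimum count 10), TMM, and the robust quasi-likelihood test on 4 group means (common biological coefficient of variation 0.171), with Benjamini-Hochberg adjustment over all 17796 genes and calls at an adjusted p under 0.05. The SE is the log2 effect divided by the square root of F, and intervals are 95%. Nothing in the labels ties replicates to separate animals. Reads of Xist and Ddx3y place replicate 2 of WT, SUMO-KO and Q175HD/SUMO-KO in other animals than replicates 1 and 3; between the remaining libraries of a genotype the spread behind the tests may be technical. DESeq2 1.42.0 was an alternative, as were other normalisation and filters, leaving out libraries, a replicate block, and covariates for Xist, cortical or choroid plexus signal. Some of these were added after seeing the data: joint cortical and Xist covariates, leaving out both WT 1 and WT 2, and DESeq2 with the cortical covariate. The scripts were tested on simulated data.

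Named genes were Htt, Rasd2 and Gabra2, the 12 of smallest interaction p with a mean of at least 50 reads, the 8 largest rises and 8 largest falls of the averaged knock-in effect, up to 3 members per list by expression, core SUMO genes by role, and, picked with their values in view, the genes called for SUMO-1 loss and list members at an unadjusted p under 0.05. The comparison and the lists were chosen with earlier results of these data known. Results for a few genes fixed for naming, or called, are not reported here. Coordinates are from GENCODE M21 (GRCm38), which held 17772 of the tested genes.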

Additional observations from a re-analysis of the deposited data

How the results depend on the processing

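The count of called genes was 0 by edgeR with all libraries, with median-ratio size factors, with genes of at least 50 reads, and with Xist, choroid plexus, cortical or joint cortical and Xist covariates. It was 2 with no filter on low counts (Gm10635 and Nxph4) and 32 by DESeq2. Leaving out 1 library at a time gave 0 to 34 calls: 34 without WT 3, 1 (Wdfy1) without WT 2, and 2 (Gm25939 and 6820402A03Rik) without SUMO-KO 1. Of the 34 genes, 5 were in the cortical list of 24 genes, where 34 of all 18166 genes tested without WT 3 were called. The median interaction of the 34 was 2.21 without WT 3, 1.91 with all libraries and 0.52 with the cortical covariate. Without SUMO-KO 3, 1860 genes had an unadjusted p under 0.05 beside 770 with all libraries, and 0 were called. The cause was not tested.

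The signed median interaction of the knock-in genes ran from 0.045 to 0.153 with single libraries left out. It was 0.126 among libraries with few Xist reads, 0.016 with the cortical covariate, 0.005 with cortical and Xist covariates, and 0.021 by DESeq2 with the cortical covariate. The interaction of Rasd2 turned from -0.41 to 0.189, 0.241 and 0.176 under those last 3 fits. Over named genes and settings, 956 interaction values were computed besides those with all libraries, of which 30 passed the threshold that had not with all libraries. The sign turned in 19 of them, from 9 genes: 4 of Sfmbt2, 3 each of Mas1, Sec14l3 and Rasd2, 2 of Gpr139, and 1 each of Shox2, Tnnt2, Tmc3 and Col6a4.

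Whether the replicate numbers pair the libraries cannot be told from their correlations. Of 18 same-numbered pairs, 10 had deviations from the group means correlated above 0.1, with a range of -0.255 to 0.595. Pairs with different numbers ran from -0.59 to 0.365. The deviations within a genotype cancel each other, so the pairs are not independent. With a replicate block edgeR called 0 genes, with 863 at an unadjusted p under 0.05, and the signed median was 0.084. Precision was limited by 3 libraries per genotype and, for genes under 50 reads, by depth.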
